A study of Mus musculus with 6 samples.

Results

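Described here are 10 genes of meiotic recombination and of the attachment of meiotic telomeres to the nuclear envelope: *Spo11*, *Mei1*, *Dmc1*, *Meiob*, *Msh4*, *Msh5*, *Hfm1*, *Terb1*, *Terb2* and *Majin*. They were taken by gene symbol from the deposited table of 19489 genes, and all 10 were found. The table covers 6 mRNA-seq libraries of mouse embryonic stem cells (ESCs), 3 of *Dppa3* overexpressing (OE) ESCs and 3 of control (Con) ESCs. *Dppa3* encodes a maternal factor that affects DNA methylation in the early embryo. OE ESCs carried the *Dppa3* coding sequence in the vector pLch3.7 behind a CAG promoter, Con ESCs received the empty vector and are recorded as wild type, and the study made both by transfection and puromycin selection and grew ESCs in serum and LIF. Both stable lines, from picked OE colonies, and transient OE ESCs were made in the study, without saying which kind was sequenced. J1 and D3 ESCs were used in the study, and E14 ESCs in its supplement, without saying which gave the RNA. The supplement also describes ESCs transiently transfected with pCMV6-*Dppa3* and selected with neomycin.

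The libraries are named OE-1, OE-2 and OE-D7, against Con-1, Con-2 and Con-D7. Libraries with the same ending are called a pair. No source explains D7, which is kept here as a label, and each of the 6 samples carries a different strain label, running in sample order from 129S2/SvPas to 129S7/SvPas. The study says in general that its results came from independent experiments, but nothing ties each library to a culture of its own, so the p-values below reflect how far these particular libraries scatter, which may be technical in part.

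In meiosis, SPO11 cuts both DNA strands, DMC1 loads on the resected ends and finds the homologous chromosome, and the MSH4 and MSH5 complex holds the joint molecules from which crossovers arise. Meanwhile TERB1, TERB2 and MAJIN tie telomeres to the inner nuclear membrane, where cytoskeletal motors move the chromosomes and help homologues meet. These genes are known for germ cells, and mouse ESCs, which divide by mitosis, are known to transcribe part of the germline set at low levels.

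The promoter letters of 6 of the 10 genes were matched in RefSeq's table (GRCm38.p6), taken as the 250 bases before the start site. *Spo11*, *Meiob*, *Terb2* and *Majin* had no entry. The letters searched, on both strands, were the E2F core TCCCGC, which reads GCGGGA on the other strand, the E-box CACGTG and the STRA8 motif CNCCTCAG, and no match overlapped another. The first and the second are bound by repressors of germline genes in ESCs, and STRA8 is the transcription factor of meiotic entry. Those of *Dmc1* (chr15:79605110-79605359), *Terb1* (chr8:104509888-104510137), *Msh5* (chr17:35046623-35046872) and *Hfm1* (chr5:106925891-106926140), all on the minus strand, are printed because they hold matches and belong to the genes that were higher in pair 2 below. Capitals mark the matches, and each line reads 5′ to 3′ towards the start site.
Dmc1: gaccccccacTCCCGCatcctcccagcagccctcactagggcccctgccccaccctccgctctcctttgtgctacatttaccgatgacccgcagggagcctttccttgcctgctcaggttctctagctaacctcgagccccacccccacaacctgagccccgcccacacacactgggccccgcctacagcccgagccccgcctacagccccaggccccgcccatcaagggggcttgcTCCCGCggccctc
Terb1: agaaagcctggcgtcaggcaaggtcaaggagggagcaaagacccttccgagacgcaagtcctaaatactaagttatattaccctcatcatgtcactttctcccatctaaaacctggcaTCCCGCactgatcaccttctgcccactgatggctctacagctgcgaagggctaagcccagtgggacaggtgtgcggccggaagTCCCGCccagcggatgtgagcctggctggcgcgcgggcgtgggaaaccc
Msh5: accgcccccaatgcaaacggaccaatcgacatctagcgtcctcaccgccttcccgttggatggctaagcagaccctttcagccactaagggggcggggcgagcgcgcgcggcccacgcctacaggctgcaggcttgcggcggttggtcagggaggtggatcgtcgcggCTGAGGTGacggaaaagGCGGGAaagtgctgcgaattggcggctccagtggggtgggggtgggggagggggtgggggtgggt
Hfm1: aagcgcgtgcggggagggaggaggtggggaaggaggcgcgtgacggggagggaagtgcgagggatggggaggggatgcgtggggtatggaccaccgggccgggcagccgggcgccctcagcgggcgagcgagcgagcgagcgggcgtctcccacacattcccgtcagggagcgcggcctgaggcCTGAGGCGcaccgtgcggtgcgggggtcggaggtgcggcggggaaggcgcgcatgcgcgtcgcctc

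The E2F core stood 240 and 13 bases before the start of *Dmc1*, 132 and 49 bases before that of *Terb1*, and 65 bases before that of *Msh5*. Among 32851 RefSeq promoters of this length, 16.9% held it. *Msh5* also held the STRA8 motif 82 bases before its start, as *Hfm1* did at 66 bases, against 6.42% of all promoters. No E-box was found in the 6, against 6.02% of all promoters, and *Mei1* and *Msh4* had none of the letters. The RefSeq starts of *Mei1*, *Msh4*, *Hfm1* and *Msh5* lie 12402, 1247, 822 and 375 bases inside the outer end of their genes, so these 4 windows fall within the gene span. The number of CG dinucleotides was 34 for *Hfm1*, 22 for *Msh5*, 13 for *Terb1*, 12 for *Dmc1*, 8 for *Mei1* and 4 for *Msh4*, against a median of 6 over all promoters. A match describes letters and is not a binding site.

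Depth was near equal, with 17408954 to 18176939 estimated reads per library. *Dppa3* had 278.79, 278.82 and 130.96 FPKM (fragments normalized for transcript length and for library size) in OE-1, OE-2 and OE-D7, against 6.09, 3.89 and 26.22 FPKM in Con-1, Con-2 and Con-D7, so every OE library matched its label. The ESC markers *Pou5f1*, *Sox2*, *Nanog* and 5 others were detected in all 6. The D7 pair stood apart: its 8 ESC markers summed to 1480 FPKM in OE-D7 and 1820 FPKM in Con-D7, against 2870 to 3100 FPKM in the other 4 libraries, and its 8 trophectoderm markers to 1240 and 692 FPKM, against 26.3 to 48.7 FPKM. *Krt18* (579.62 FPKM in OE-D7, 318.42 FPKM in Con-D7) and *Krt8* (421.47 and 250.06 FPKM) made up most of these trophectoderm sums. *Eomes* had 4.49 FPKM in OE-D7 and 7.50 FPKM in Con-D7, against 2.18 to 5.12 FPKM in the other 4 libraries. The rest of that list was higher in both D7 libraries than in the other 4. In bulk RNA, fewer cells of a type and less RNA per cell cannot be told apart.

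The 10 genes had at most 10.21 FPKM in any library. *Dmc1* was the highest of them in all 6, with 7.11 ± 2.42 FPKM (SD, n = 6), above 59.5% of genes in the table by its mean. *Majin* (2.73 ± 0.93), *Hfm1* (2.47 ± 0.82), *Terb2* (2.29 ± 0.92) and *Terb1* (1.65 ± 0.76 FPKM, SD, n = 6 each) followed, and neighbours in this order differed by less than their spread. *Msh5* (0.69 ± 0.27), *Mei1* (0.54 ± 0.21), *Meiob* (0.52 ± 0.35) and *Msh4* (0.33 ± 0.17 FPKM) formed a lower group whose neighbours did not differ beyond their spread either. The lowest *Dmc1* value, 3.99 FPKM in Con-1, lay above the highest value of any other of the 10, which was 3.67 FPKM for *Hfm1* in Con-2. *Spo11* was at the limit of detection.

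**Figure D1:**
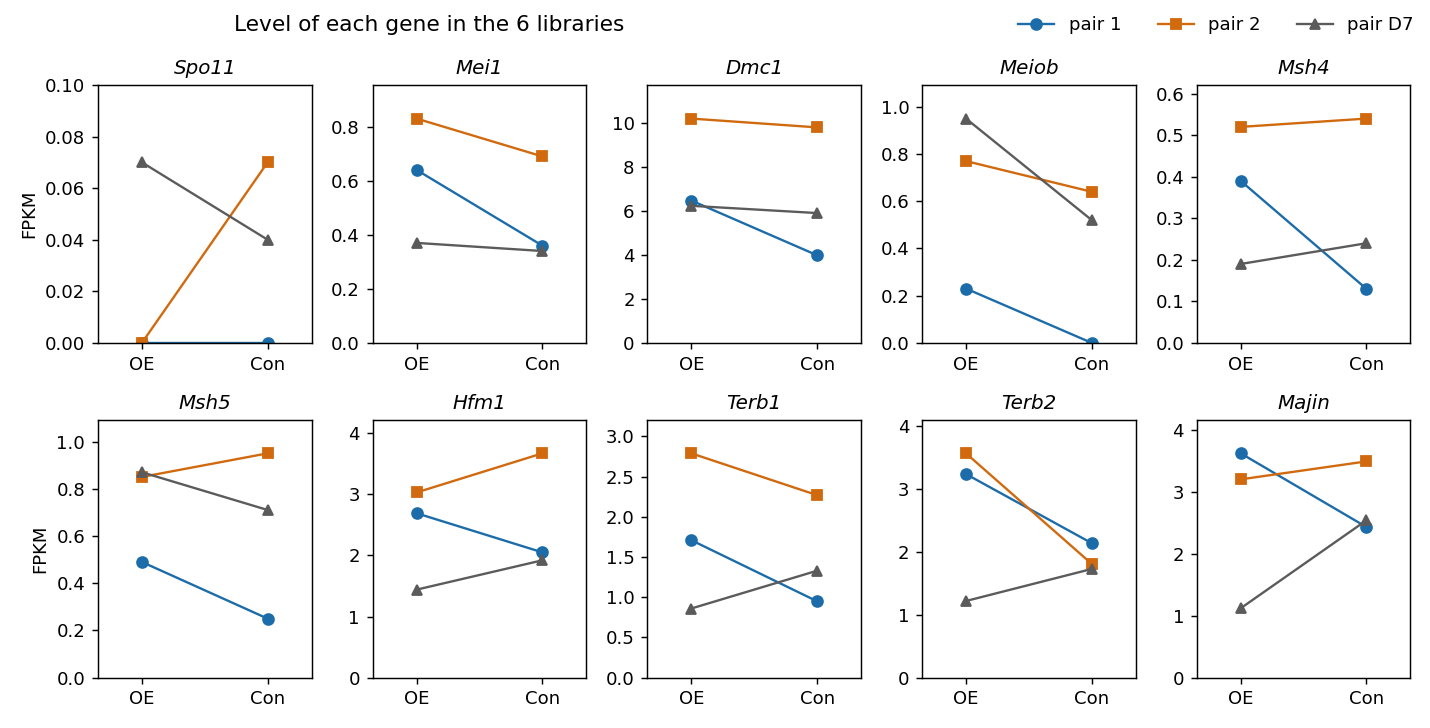
FPKM of each of the 10 genes in the OE library (left) and the Con library (right) of each pair, with a line joining the pair and a separate vertical scale from 0 for each gene. The 2 points of pair 2 lie above both points of pair 1 for 7 of the 10 genes, against 46.4% of the genes averaging 0.5 FPKM or more, while *Terb2* is the gene whose OE points of pairs 1 and 2 lie clear of all 3 Con points. *Spo11* and *Msh4* average less than 0.5 FPKM.

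*Spo11* (chr2:172977379-172993576), the catalytic subunit that makes meiotic double-strand breaks, had 0, 0 and 2 reads in OE-1, OE-2 and OE-D7, against 0, 2 and 1 reads in Con-1, Con-2 and Con-D7. A count of 0 allows up to 3 reads of a library, so no difference was detectable at this depth. *Mei1* (chr15:82070074-82126817), needed for break formation in the mouse, had 0.64, 0.83 and 0.37 FPKM in OE-1, OE-2 and OE-D7, against 0.36, 0.69 and 0.34 FPKM in Con-1, Con-2 and Con-D7. By FPKM the OE value was the higher one in each pair, but OE and Con overlapped, and both libraries of pair 2 were the highest. Its within-pair ratio of depth-scaled reads was 1.47 in pair 1 (exact 95% counting interval 0.852 to 2.59), 1.1 in pair 2 and 0.933 in the D7 pair, each interval including 1.

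*Dmc1* (chr15:79561497-79605159), the meiotic recombinase, had 6.48, 10.21 and 6.24 FPKM in OE-1, OE-2 and OE-D7, against 3.99, 9.81 and 5.91 FPKM in Con-1, Con-2 and Con-D7. Both libraries of pair 2 were the highest and Con-1 the lowest, so OE and Con overlapped. The read ratio OE over Con was 1.59 in pair 1 (238 against 151 reads, interval 1.29 to 1.97), 1.06 in pair 2 (374 against 358 reads, 0.915 to 1.23) and 0.989 in the D7 pair (213 against 220 reads, 0.816 to 1.2). Such intervals cover counting error only, and reads without molecular identifiers are not independent molecules. *Meiob* (chr17:24804301-24839788), which binds single-stranded DNA with SPATA22 during strand exchange, had 7, 22 and 28 reads in OE-1, OE-2 and OE-D7, against 0, 19 and 16 reads in Con-1, Con-2 and Con-D7. In pair 1 it was at least 2.36-fold higher in OE if Con-1 is set to a floor of 3 reads, with the 7 reads of OE-1 taken as they are, and its exact counting interval began at 1.46. In the other pairs the intervals included 1.

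*Msh4* (chr3:153857141-153906138) had 23, 30 and 11 reads in OE-1, OE-2 and OE-D7, against 8, 32 and 14 reads in Con-1, Con-2 and Con-D7. *Msh5* (chr17:35028605-35046997), its partner, had 0.49, 0.85 and 0.87 FPKM in OE-1, OE-2 and OE-D7, against 0.25, 0.95 and 0.71 FPKM in Con-1, Con-2 and Con-D7. For both genes Con-1 was the lowest of the 6 and the groups overlapped. The pair 1 read ratio of *Msh4* was 2.91 (1.25 to 7.51) and that of *Msh5* 1.82 (0.934 to 3.68). *Hfm1* (chr5:106840193-106926712), a helicase needed for crossovers, had 2.69, 3.03 and 1.44 FPKM in OE-1, OE-2 and OE-D7, against 2.05, 3.67 and 1.92 FPKM in Con-1, Con-2 and Con-D7. OE was the higher value in pair 1 and the lower one in the other pairs, with an interval below 1 in the D7 pair (ratio 0.715, 0.519 to 0.981). Estimated reads of *Hfm1* were not whole numbers in any library, nor were those of *Msh5* in 5 of 6, so part of them was shared out by the counting.

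*Terb1* (chr8:104446718-104509887), which binds the telomere protein TRF1, had 1.71, 2.79 and 0.86 FPKM in OE-1, OE-2 and OE-D7, against 0.95, 2.27 and 1.33 FPKM in Con-1, Con-2 and Con-D7. *Terb2* (chr2:122186272-122206393), the link between TERB1 and MAJIN, had 3.24, 3.57 and 1.22 FPKM in OE-1, OE-2 and OE-D7, against 2.14, 1.81 and 1.73 FPKM in Con-1, Con-2 and Con-D7. *Majin* (chr19:6184345-6224230), the membrane anchor of the complex, had 3.62, 3.20 and 1.12 FPKM in OE-1, OE-2 and OE-D7, against 2.43, 3.49 and 2.54 FPKM in Con-1, Con-2 and Con-D7. For all 3 genes OE-D7 was the lowest of the 6 libraries. *Terb2* was the one gene of the 10 where OE-1 and OE-2 lay above every Con library, as 6.69% of genes above the filter did, with 3.41 ± 0.23 FPKM in OE-1 and OE-2 and 1.98 ± 0.23 FPKM in Con-1 and Con-2 (SD, n = 2 each).

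The read ratio of *Terb2* was 1.52 in pair 1 (1.14 to 2.03) and 1.97 in pair 2 (1.46 to 2.68), but 0.707 in the D7 pair (0.473 to 1.05). *Terb1* had 1.66 (1.13 to 2.46), 1.34 (1.01 to 1.76) and 0.617 (0.385 to 0.975) in pairs 1, 2 and D7. *Majin* had 1.45 (1.07 to 1.97), 0.967 (0.728 to 1.28) and 0.431 (0.282 to 0.647). All 3 ratios thus lay above 1 in pair 1 and below 1 in the D7 pair, where the interval of *Terb2* included 1, and in pair 2 that of *Majin* was not distinguishable from 1. None of the 10 genes overlapped another protein-coding gene in GENCODE M21. The start of *Terb2* lies 83 bases from *Patl2* on the opposite strand, and *Patl2* had 3.29, 4.48 and 2.48 FPKM in OE-1, OE-2 and OE-D7, against 3.06, 4.81 and 2.84 FPKM in Con-1, Con-2 and Con-D7. Whether counting used strand is not given in the sources used here.

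**Figure D2:**
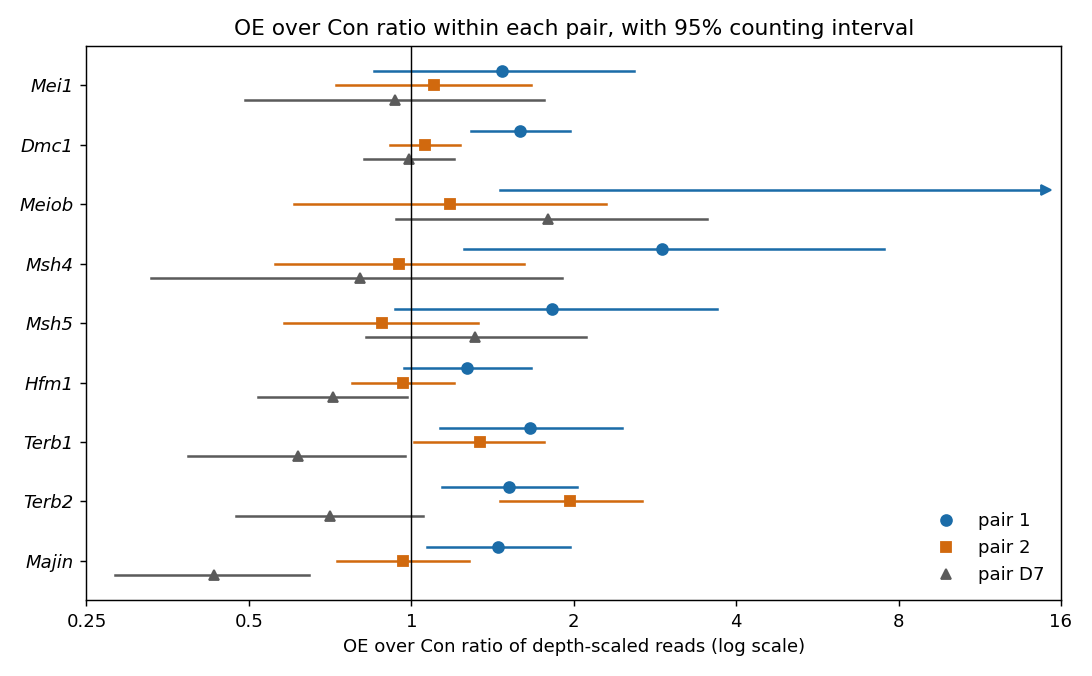
Ratio of depth-scaled reads, OE over Con, within pair 1, pair 2 and the D7 pair for 9 genes on a log axis, with exact 95% counting intervals as bars and a line at 1. *Spo11*, with 5 reads in all, is left out, and the arrow for *Meiob* in pair 1 stands for an interval with no upper end because Con-1 had 0 reads. Intervals lie above 1 for 6 of the 10 genes in pair 1 (21.7% of genes above the filter), above 1 for 2 in pair 2 (21.2%) and below 1 for 3 in the D7 pair (19.4%). *Spo11* and *Msh4* lie below that filter.

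Taken pair by pair, 9 of the 10 genes had the higher FPKM in OE in pair 1 and 1 was equal at 0, against 60.5% of the 13806 genes above the 0.5 FPKM filter described below. In pair 2, 5 were higher and 5 lower in OE, where 56.1% of genes were higher, and the same counts held in the D7 pair, where 54.5% were higher. These counts include *Msh4* and *Spo11*, which lie below that filter. *Spo11* had 0 reads in OE-2 against 2 in Con-2, and 2 in OE-D7 against 1 in Con-D7. The median log2 ratio of FPKM plus 0.5 over the 10 was 0.49 in pair 1, 0.01 in pair 2 and -0.03 in the D7 pair, against 0.05, 0.03 and 0.03 over all genes. Summed over the 10 genes, OE had 763 reads and Con 502 reads in pair 1, OE 1051 and Con 958 in pair 2, and OE 502 and Con 610 in the D7 pair.

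The study asked whether *Dppa3* acts on the change of ESCs to a 2-cell-like state, and its RNA-seq compared OE with Con. By gene set enrichment the study reported sets of meiotic cell cycle, spermatogenesis and spermatid development among genes raised in OE. It reported the same for DNA recombination and repair. Those results are over whole gene sets, while the tests here are per gene. Over OE-1 and OE-2 against Con-1 and Con-2, 7 of the 10 genes passed a mean FPKM of 0.5 and were tested with edgeR, while *Spo11*, *Meiob* and *Msh4* did not. None of the 7 passed an adjusted p of 0.05, where 0% of 13494 genes passed, and 0 of the 7 had an unadjusted p under 0.05 (edgeR), against 58 of all genes in the higher and 4 in the lower direction. All 7 log2 fold changes were above 0, with a median of 0.25, against -0.01 over all genes. *Terb2* had the largest at 0.73 (SE 0.30, adjusted p = 1), and its exact two-sided permutation p was 0.333, the smallest that 2 libraries against 2 can give.

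With the pair as a block, 0.763% of genes passed in the higher and 0.126% in the lower direction, and again 0 of the 7. *Terb2* had a log2 fold change of 0.74 (SE 0.22, adjusted p = 0.189), with adjusted p from 0.146 to 1 over the alternatives run. *Terb1* had 0.51 (SE 0.23, adjusted p = 0.594) and *Dmc1* 0.31 (SE 0.16, adjusted p = 0.672). *Mei1* had 0.27, *Majin* 0.19, *Msh5* 0.16 and *Hfm1* 0.09, with SE of up to 0.35. Without Con-1, the fold changes of *Dmc1*, *Mei1*, *Msh5* and *Hfm1* in the fit without the block turned to -0.22, -0.12, -0.53 and -0.26.

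Over all 3 pairs, 8 of the 10 genes were tested, *Meiob* now among them, and 0 passed with or without the block, where 0.00724% of genes passed with the block and 0 without it. In the blocked fit *Terb2* had a log2 fold change of 0.37 (SE 0.27, adjusted p = 0.723), *Meiob* 0.77 (SE 0.50, adjusted p = 0.691) and *Majin* -0.22 (SE 0.30, adjusted p = 0.863). The remaining 5 lay between -0.09 for *Hfm1* and 0.24 for *Msh5*. These values share 4 libraries with the comparison over pairs 1 and 2.

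Genes that work with the 10 were taken from lists of the same steps. In the blocked comparison of OE with Con over pairs 1 and 2, 1 of 7 tested genes of break formation was higher, which was *Hormad1* (log2 fold change 0.82, SE 0.12, adjusted p = 0.00112), a chromosome axis protein that promotes breaks. None of 14 genes of strand exchange, 15 of crossover intermediates and resolution, or 9 of telomere attachment and movement passed in either direction. Among 12 axis and synaptonemal complex genes *Smc1b*, the meiotic cohesin subunit, was also higher (0.62, SE 0.12, adjusted p = 0.0122), and among 8 genes of meiotic entry *Dazl*, a germ cell RNA-binding protein (0.74, SE 0.10, adjusted p = 0.000873). Of the 6 markers of 2-cell-like cells, 4 were higher in the same fit (*Zscan4f*, *Tcstv3*, *Zscan4d* and *Zscan4c*, with a list median of 0.54), and their part was not tested. Without the block none of these passed, with 0% of genes called. With the block over all 3 pairs *Hormad1*, *Smc1b* and *Dazl* did not pass either (adjusted p = 0.591, 0.736 and 0.0936, edgeR).

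All calls among the 10 genes lay between pair 2 and pair 1, with genotype as a term in the fit. There the OE and Con libraries of a pair served as its replicates. The spread of this fit is thus only how differently OE and Con moved between the pairs. The labels number these libraries as replicates, and nothing states what differed between the numbers. *Dmc1* had 10.21 FPKM in OE-2 and 9.81 FPKM in Con-2, against 6.48 FPKM in OE-1 and 3.99 FPKM in Con-1, a log2 fold change of 0.87 (SE 0.16, adjusted p = 0.000247, edgeR). *Terb1* was higher by 0.84 (SE 0.23, adjusted p = 0.00621), *Msh5* by 1.18 (SE 0.35, adjusted p = 0.00965) and *Hfm1* by 0.56 (SE 0.19, adjusted p = 0.0221). Thus a recombinase, a crossover complex subunit, a helicase and a telomere adaptor were each higher in both libraries of pair 2 than in either library of pair 1. The same held for 46.4% of all genes above the filter. These 4 are named because they were called, so their separation by pair is no further result.

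Of the 7 genes tested, 4 were higher and 0 lower in pair 2, where 26% of genes were called higher and 25.4% lower. The median log2 fold change of the 7 was 0.68, against 0.02 over all genes. *Mei1* (0.68, SE 0.31, adjusted p = 0.0791), *Majin* (0.10, SE 0.22, adjusted p = 0.737) and *Terb2* (-0.12, SE 0.22, adjusted p = 0.658) did not pass. With the filter lowered to 0.1 FPKM, *Meiob* also passed (2.48, SE 0.73, adjusted p = 0.0163) and *Msh4* did not (0.95, SE 0.43, adjusted p = 0.0951). *Dmc1* passed in all 11 fits run, with adjusted p up to 0.0288, *Msh5* and *Terb1* in 8 each and *Hfm1* in 6. DESeq2 called *Dmc1* alone, and without Con-1 it was also the one gene of the 7 called, with log2 fold changes of 0.57 for *Dmc1*, 0.52 for *Terb1*, 0.82 for *Msh5* and 0.41 for *Hfm1*.

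**Figure D3:**
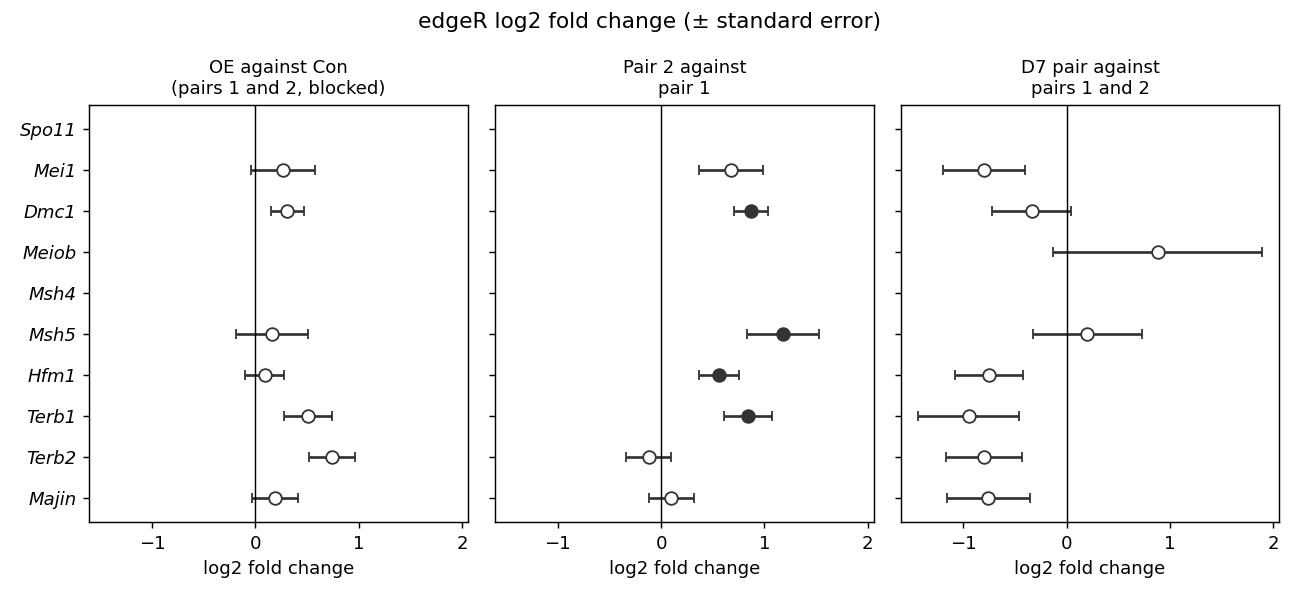
edgeR log2 fold changes with standard errors for the genes tested in 3 comparisons: OE against Con over pairs 1 and 2 with the pair as a block, pair 2 against pair 1, and the D7 pair against pairs 1 and 2. Filled points passed an adjusted p of 0.05, which holds for *Dmc1*, *Msh5*, *Hfm1* and *Terb1* between pair 2 and pair 1 and for no gene in the other panels. A gene without a point was below the filter in that comparison.

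Other meiotic genes differed between pair 2 and pair 1 as well. Of 12 axis and synaptonemal complex genes, 10 were higher and 0 lower, with a median log2 fold change of 0.71, among them *Sycp3*, a lateral element protein (1.45, SE 0.16, adjusted p = 1.98e-06), and *Smc1b* (1.28, SE 0.12, adjusted p = 3.93e-07). Of 7 genes of break formation, 4 were higher and 0 lower (*Ankrd31*, *Rec114*, *Iho1* and *Hormad1*, between 0.70 and 1.19). In the other lists genes went both ways. Strand exchange had 2 higher (*Tex15* and *Mcmdc2*) and 4 lower of 14 (among them *Rpa2*, *Swsap1* and *Spata22*), with a median of -0.14.

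Crossover intermediates and resolution had 5 higher and 7 lower of 15, with a median of -0.20. The 5 higher ones were *Cntd1* (2.02, SE 0.23, adjusted p = 3.11e-06), *Rnf212b*, *Rnf212*, *Tex11* and *Blm*. The 7 lower ones were *Exo1* (-1.01, SE 0.09, adjusted p = 5.25e-07), *Trip13*, *Eme1*, *Ccnb1ip1*, *Mus81*, *Rmi1* and *Top3a*. Telomere attachment and movement had 3 higher (*Kash5*, the meiotic motor adaptor, at 1.45, and *Sun1* and *Sun2*) and 2 lower of 9 (*Lmnb1* and *Terf2*). Among 8 genes of meiotic entry *Stra8*, *Dazl*, *Meioc* and *Rec8* were higher and *Meiosin*, the partner of STRA8, was lower (-1.46, SE 0.26, adjusted p = 0.000191).

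**Figure D4:**
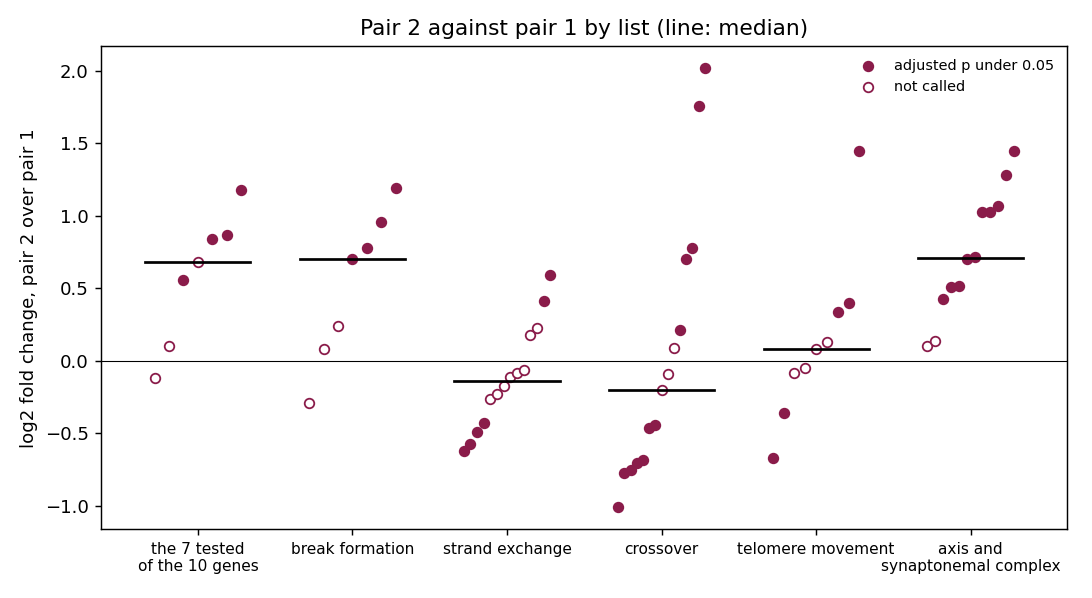
edgeR log2 fold change of pair 2 over pair 1 for each tested gene of the 10 and of 5 lists of related meiotic genes, 1 point per gene, with filled points at an adjusted p under 0.05 and a line at the median. Medians lie at 0.68 for the 7 tested genes, 0.70 for break formation and 0.71 for axis and synaptonemal complex genes, but at -0.14 for strand exchange and -0.20 for crossover genes. *Hormad1* stands in both the break formation and the axis list.

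Marker levels moved between these pairs too. The 10 germ cell markers summed to 168 FPKM in OE-2 and 142 FPKM in Con-2, against 94 FPKM in OE-1 and 69.7 FPKM in Con-1. Of these 10, 4 were called higher in pair 2 (*Stra8*, *Mael*, *Dazl* and *Sycp3*) and 1 lower (*Nanos3*). *Ddx4*, *Dazl*, *Prdm1* and *Stra8* also stand in the meiotic entry list and *Sycp3* in the axis list, so the lists are not separate observations. The 6 markers of 2-cell-like cells summed to 184 FPKM in OE-2 and 115 FPKM in Con-2, against 105 FPKM in OE-1 and 75.1 FPKM in Con-1. The 8 trophectoderm markers summed to 42.9 and 48.7 FPKM, against 29.9 and 26.3 FPKM, and the 10 fibroblast or feeder markers to 55.5 and 61.6 FPKM, against 40.1 and 33.7 FPKM. Most of the fibroblast or feeder sums was *Thy1*, with 48.97 FPKM in OE-2 and 52.99 FPKM in Con-2, against 36.88 FPKM in OE-1 and 30.84 FPKM in Con-1. Only 4 of these 10 passed the filter: *Pdgfrb*, *Thy1* and *Col1a1* were higher in pair 2, and *Fbn1* was not called (log2 fold change -0.27, SE 0.20). The 8 ESC markers summed to 2940 and 3100 FPKM, against 2920 and 2870 FPKM, but 4 of them were lower in pair 2 (*Nanog*, *Zfp42*, *Utf1* and *Pou5f1*) and 1 was higher (*Tdgf1*), with a median log2 fold change of -0.19. The part of these in the differences of the 10 genes was not tested.

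In the D7 pair against pairs 1 and 2, 0 of 8 tested genes passed, where 6.77% of genes were called higher and 3.06% lower. *Terb1* had 0.86 FPKM in OE-D7 and 1.33 FPKM in Con-D7, against 0.95 to 2.79 FPKM in the other 4 libraries, a log2 fold change of -0.95 (SE 0.49, adjusted p = 0.25). *Mei1* (-0.80, SE 0.40), *Terb2* (-0.80, SE 0.37), *Majin* (-0.76, SE 0.40) and *Hfm1* (-0.75, SE 0.33) had adjusted p of 0.189 to 0.259. *Dmc1* had -0.34, *Msh5* 0.20 and *Meiob* 0.88, and the median of the 8 was -0.76, against -0.03 over all genes.

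For the telomere genes the low values came from OE-D7. Without it, *Terb1* was at -0.39, *Terb2* at -0.21 and *Majin* at -0.12, and without Con-D7 they were at -1.57, -1.45 and -1.52. Among OE libraries, 7 of the 10 genes were lower in OE-D7 than in both OE-1 and OE-2 and 3 were higher than in both, against 40.8% and 37.2% of genes above the filter. Among Con libraries, 3 were lower in Con-D7 than in both others and 0 were higher, against 30.7% and 32.8%. Of the 3 higher in OE-D7, *Spo11* had 2 reads against 0 and 0, and *Msh5* had 0.87 FPKM against 0.85 FPKM in OE-2. *Spo11* and *Msh4* are counted among the 10 but lie below the filter of these shares. The trophectoderm markers also summed to more in OE-D7 (1240 FPKM) than in Con-D7 (692 FPKM). Within that list *Cdx2* (1.20 FPKM in OE-D7, 1.49 FPKM in Con-D7) and *Eomes* (4.49 and 7.50 FPKM) went the other way, and the rest were higher in OE-D7. The 2-cell-like markers (491 FPKM in OE-D7, 330 FPKM in Con-D7) and the fibroblast or feeder markers (190 FPKM in OE-D7, 76.8 FPKM in Con-D7) summed to more in OE-D7 too. The 7 markers of primed or early mesendoderm cells summed to less in OE-D7 (95.4 FPKM) than in Con-D7 (172 FPKM), as did the ESC markers. The part of these lists was not tested.

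Whether OE changed the 10 genes differently in the D7 pair was tested as the difference of both effects, D7 pair minus pairs 1 and 2. Of the 8 genes 0 passed without the block, with 0% of all genes called, and 0 with it, with 1.44% called. The D7 effect is 1 OE library against 1 Con library, so the blocked fit takes all of its spread from pairs 1 and 2 and assumes that the D7 pair varies alike. In that fit *Majin* was at -1.42 (SE 0.44, adjusted p = 0.121), *Terb2* at -1.26 (SE 0.43, adjusted p = 0.177) and *Terb1* at -1.22 (SE 0.47, adjusted p = 0.262) on the log2 scale, with adjusted p up to 1 over the alternatives. Among related genes, under the same assumption, *Hormad1*, *Zcwpw1* and *Smc1b* were lower and *Lmna*, a nuclear lamina gene, was higher.

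In the D7 pair itself, against pairs 1 and 2, the related genes that passed were lower: *Brca2* (-0.93, SE 0.13, adjusted p = 0.0169) and *Hsf2bp* (-0.93, SE 0.20, adjusted p = 0.047), which load recombinases, *Mlh3* (-1.09, SE 0.15, adjusted p = 0.0148), which resolves crossovers, and *Syce1* (-1.54, SE 0.16, adjusted p = 0.00764), a central element protein. None of the genes of break formation, telomere attachment or meiotic entry passed. *Stra8* had 33.81 FPKM in OE-D7 and 29.18 FPKM in Con-D7, against 1.96 to 12.24 FPKM in the other 4 libraries (log2 fold change 2.20, SE 0.72, adjusted p = 0.11).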

How the data were processed

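mRNA-seq was done on 6 libraries, sequenced on BGISEQ-500. The study mapped reads to mm10 with Bowtie2 and counted with RSEM. HISAT and GRCm38.p6 stand instead in the submitters' processing notes, and versions are not given in the sources used here. The authors deposited estimated counts per gene, not normalized, and FPKM with 2 decimals. The counts of OE-D7 and Con-D7 are headed Average Read Count, those of the other libraries Read Count. What was averaged is not stated, and all counts were used alike here, also in the D7 fits and counting intervals.

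Counts were rounded and tested with edgeR 4.0.16 (TMM, quasi-likelihood F test, R 4.3.3, Benjamini-Hochberg adjustment over all genes) on genes averaging 0.5 FPKM or more over the libraries of a fit. A standard error is the absolute log2 fold change over the root of F. Scripts were tested on simulated data. Exact permutation tests used log2 of FPKM plus 0.5. Counting intervals are exact (Clopper-Pearson, SciPy 1.17.1). Alternatives were DESeq2 1.42.0, its size factors, limma 3.58.1 on log2 FPKM plus 0.5, other filters and pseudocounts, each library left out, and the pair as a block, whose combinations with other settings were chosen after seeing the data. The named genes were the 10 members, with related genes from lists of their steps. The members and lists were chosen with earlier results of these data known. *Spo16* and *Speedya* of the lists were not matched in the table. The values of 1 listed gene are not reported here.

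The replicate numbers were treated as pairs because libraries of the same number deviated together from their group means (correlations 0.88, 0.76 and 0.89 over 12565 genes, against -0.78 to -0.03 for other combinations), though no source states a shared culture or batch. The 0.89 is for OE-D7 and Con-D7, so it cannot tell a shared number from the shared D7 label. The 0.88 and 0.76, for pairs 1 and 2, are deviations from means that include the D7 libraries. Deviations from a group mean cancel within the group, so positive values for equal numbers push the other combinations negative. The negative range is therefore no separate evidence. Pairing lowered the biological coefficient of variation to 0.0804 with the block, against 0.283 without it, over 4 libraries.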

Additional observations from a re-analysis of the deposited data

How the results depend on the processing

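No member passed in any OE comparison, in the D7 comparison or in the difference of effects under any alternative run. With a replicate block, 103 genes were higher and 17 lower in OE over pairs 1 and 2, against 0 without it. Combined with the replicate block, DESeq2 called 32 and 2, limma 125 and 4, and a mean FPKM of at least 0.1 called 60 and 4, while DESeq2 alone called 2 higher. Leaving out a library gave 1 to 86 higher and 0 to 4 lower. Over all 3 pairs, the replicate block called 1 lower, with DESeq2 58 higher and 11 lower, with limma 2 and 1, with the lower filter 1 and 1, and DESeq2 alone 6 and 1. For the difference in the OE effect the replicate block called 129 higher and 70 lower, with DESeq2 15 and 7, with limma 1 and 3, with the lower filter 99 and 57, and DESeq2 alone 1 and 1. Leaving out a library gave 0 to 4 higher and 0 to 6 lower.

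Between pair 2 and pair 1, DESeq2 called 1 member and 1573 genes higher and 2028 lower. Leaving out a library gave 1 to 3 members higher, and 1894 to 2889 genes higher and 2079 to 2899 lower. For the D7 pair, DESeq2 called 1499 higher and 995 lower, and the fit with no genotype term 1451 and 860. Leaving out a library gave 0 (without OE-D7) to 1615 (without Con-2) higher and 0 to 918 lower, with 28 higher without Con-D7.

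Fold changes of some members changed sign when a library was left out. In OE against Con over pairs 1 and 2 they ran, as log2 values, from -0.22 to 0.96 for *Dmc1*, -0.12 to 0.78 for *Mei1*, -0.53 to 1.21 for *Msh5* and -0.26 to 0.49 for *Hfm1*, each lowest without Con-1 and highest without Con-2. *Majin* ran from -0.49 to 0.19 over all 3 pairs and from -0.14 to 0.34 between pair 2 and pair 1, *Terb2* from -0.64 to 0.30 between pair 2 and pair 1, and *Msh5* from -0.03 to 0.68 for the D7 pair. The OE fits with a library left out had no block. Over pairs 1 and 2, OE-1 and OE-2 thus stood against Con-2 alone without Con-1, and against Con-1 alone without Con-2. The difference between pair 2 and pair 1 then enters the OE fold change. Where 1 library was left in a group, it was assumed to vary like the others. How much of the sign changes comes from this was not tested. Under other pseudocounts or TMM scaling, 83 within-pair ratios stayed within their counting interval and 2 did not: a pseudocount of 1 FPKM gave log2 ratios of 0.30 for both *Meiob* and *Msh4* in pair 1. With few reads for *Spo11*, *Msh4* and *Meiob*, depth limits what can be seen for them.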

Other observations

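The average profile of the 8 members that averaged 0.5 FPKM or more, as log2 of FPKM plus 0.5 centred on each gene's mean, was 0.08, 0.43 and -0.28 in OE-1, OE-2 and OE-D7, against -0.41, 0.30 and -0.13 in Con-1, Con-2 and Con-D7. Of 13798 other genes, the 5 nearest to it by root mean square difference over the 6 libraries were *Calr3*, *C1rl*, *Matk*, *Camkk1* and *Gm31532*, at 0.05 to 0.06. *Calr3*, the nearest, had 2.04, 2.91 and 1.63 FPKM in OE-1, OE-2 and OE-D7, against 1.28, 2.49 and 1.79 FPKM in Con-1, Con-2 and Con-D7. Among the 8 members themselves, *Mei1* lay closest to the average at 0.11, with 58 other genes closer, and *Meiob* farthest at 0.47, with 9853 closer. With 6 libraries and many genes, near profiles are a description.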
